A study of Mus musculus with 9 samples.

Results

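The genes described are 7 genes of antigen presentation by MHC class II, namely Ciita, Cd74, H2-Aa, H2-Ab1, H2-Eb1, H2-DMa and H2-DMb1. They were taken by name from the 54532 gene rows of kidney RNA-seq counts, and all 7 were among the 16646 genes that passed the filter on low counts. Expression was measured in 9 kidney libraries of mice with the strain label C57BL/6J, in 3 groups of 3. Wild-type (WT) mice with no stated treatment form the first group. Of the Trex1-/- mice, one group received PBS and the other SN-011, a STING antagonist, for 2 weeks. The Trex1-/- mice carried the deletion in every cell, came from crosses of Trex1+/- parents and were about a month old when daily intraperitoneal injections of SN-011 or of its vehicle (Tween 80 in PBS) began. The WT mice were purchased, so they were not littermates, and their age was stated only as a range of weeks for the study as a whole. The exonuclease TREX1 clears DNA from the cytosol, and STING relays the signal of the DNA sensor cGAS to interferon genes. The comparisons ask how the class II genes differed between Trex1-/- and WT kidneys, and how they differed between Trex1-/- kidneys with and without the antagonist.

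MHC class II molecules present peptides from endosomes to CD4+ T cells. Their α and β chains, in this strain encoded by H2-Aa and H2-Ab1, assemble in the endoplasmic reticulum with the invariant chain, CD74, which blocks the peptide groove and steers the complex to endosomes. There, proteases such as cathepsin S trim CD74 to a fragment, and the H2-DM heterodimer of H2-DMa and H2-DMb chains exchanges that fragment for peptide. CIITA is the coactivator that switches the whole set on, through factors that sit on conserved X and Y boxes upstream of these genes, and interferon gamma is its best known inducer outside B cells and dendritic cells. In kidney, resident macrophages and dendritic cells carry most class II, and tubular epithelium can acquire it in inflammation. Background on the strain also bears on H2-Eb1: C57BL/6 mice lack the promoter of the Eα gene, so their Eβ chain has no partner.

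In the GRCm38 annotation, 5 of the 7 genes lie on chromosome 17 within the class II region. H2-DMa (ENSMUSG00000037649) spans 34119541 to 34139101 on the plus strand, and H2-DMb1 (ENSMUSG00000079547) spans 34153072 to 34160230 on the plus strand. H2-Ab1 (ENSMUSG00000073421) spans 34257689 to 34269419 on the plus strand, H2-Aa (ENSMUSG00000036594) 34282744 to 34287823 on the minus strand, and H2-Eb1 (ENSMUSG00000060586) 34305867 to 34316674 on the plus strand. Ciita (ENSMUSG00000022504) lies on chromosome 16, 10480059 to 10528418, on the plus strand. Counts were summed over the exons of each gene. Of the exonic bases of H2-DMa, 360 of 3448 (10.4%) are shared with Brd2 on the opposite strand, and of those of Ciita, 329 of 9535 (3.45%) are shared with Dexi on the opposite strand. The strand setting of the counting was not stated, so reads from those stretches are uncertain. H2-DMb1 and its neighbour H2-DMb2 are close paralogs, and their reads may not have been told apart everywhere.

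The promoters are shown because the same boxes recur in genes that CIITA acts on. RefSeq promoter windows of GRCm38.p6, cut here to the 250 bases before the start, were present for 4 of the 7 genes (H2-Aa, H2-Eb1, H2-DMa and H2-DMb1). They were searched on both strands for the letters AGNNACNGA, taken as an X box, and GATTGG, taken as a Y box, where N is any base and the motifs do not overlap each other. The X letters were found in 14.7% and the Y letters in 14.6% of all 32851 windows, whereas an X followed within 30 bases by a Y on the same strand was found in 41 windows (0.125%). H2-Eb1 and H2-DMb1 each held such a pair, with 23 and 24 bases between the boxes, and so did H2-Eb2, another β chain gene, with 23. In H2-Eb1 the X box started 92 bases and the Y box 60 bases before the gene's start. H2-Aa held the Y letters 49 bases before its start without these X letters, 1 of the 2 windows of H2-DMa held the Y letters, and none of the 5 class I genes with a window held the pair. The stretches below run 5′ to 3′ on the strand of the gene, with the X letters and the Y letters of either strand in capitals. They are from chr17:34305745-34305842 (plus strand) for H2-Eb1, chr17:34325512-34325609 (plus strand) for H2-Eb2 and chr17:34287837-34287934 (minus strand) for H2-Aa.
H2-Eb1: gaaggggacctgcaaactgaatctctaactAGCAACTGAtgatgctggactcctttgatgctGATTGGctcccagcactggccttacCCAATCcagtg
H2-Eb2: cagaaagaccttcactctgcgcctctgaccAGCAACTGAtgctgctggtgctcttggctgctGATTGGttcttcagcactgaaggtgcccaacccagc
H2-Aa: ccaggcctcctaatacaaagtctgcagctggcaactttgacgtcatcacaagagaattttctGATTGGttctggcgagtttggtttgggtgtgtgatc
The H2-Eb1 and H2-Eb2 stretches carry the same X letters at the same distance from the Y letters, yet their genes were read at very different depths, as given with the class II chains further on.

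Libraries held 16118813 to 21928965 counts. Trex1 was listed at 0 counts in all 9 libraries, WT included, and since Atrip exons cover all 1147 exonic bases of Trex1, its count could not check the labels. The kidney label fitted its markers, since tubule genes summed to 15672 to 19019 CPM (each library's counts put on a common scale by its size and TMM factor) and podocyte genes to 348 to 474 CPM. Reads of Y-linked genes were present at 153 to 188 CPM in all 3 PBS libraries, in WT replicate 3 and in SN-011 replicate 2, whereas the other 4 libraries held Xist and at most 0.377 CPM of Y-linked reads. PBS libraries without Y-linked reads were not among those analysed, so a comparison with PBS within such libraries could not be made. SN-011 replicate 1 was the lowest of its group for all 7 class II genes. Because these are bulk tissues, fewer cells of a type and less RNA per cell cannot be told apart in any value below.

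Together the 7 genes took 0.0571% to 0.0777% of the counts in WT, 0.125% to 0.170% in Trex1-/- with PBS, and 0.0836%, 0.130% and 0.138% in SN-011 replicates 1, 2 and 3. Every PBS library was above every WT library, and the SN-011 libraries ran from just above WT to within the PBS range. In Trex1-/- kidneys with PBS, Cd74 and H2-Ab1 rose 2.72-fold and 2.17-fold over WT. The other 5 genes were higher on average by 1.38-fold to 1.90-fold without passing the test.

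**Figure D1:**
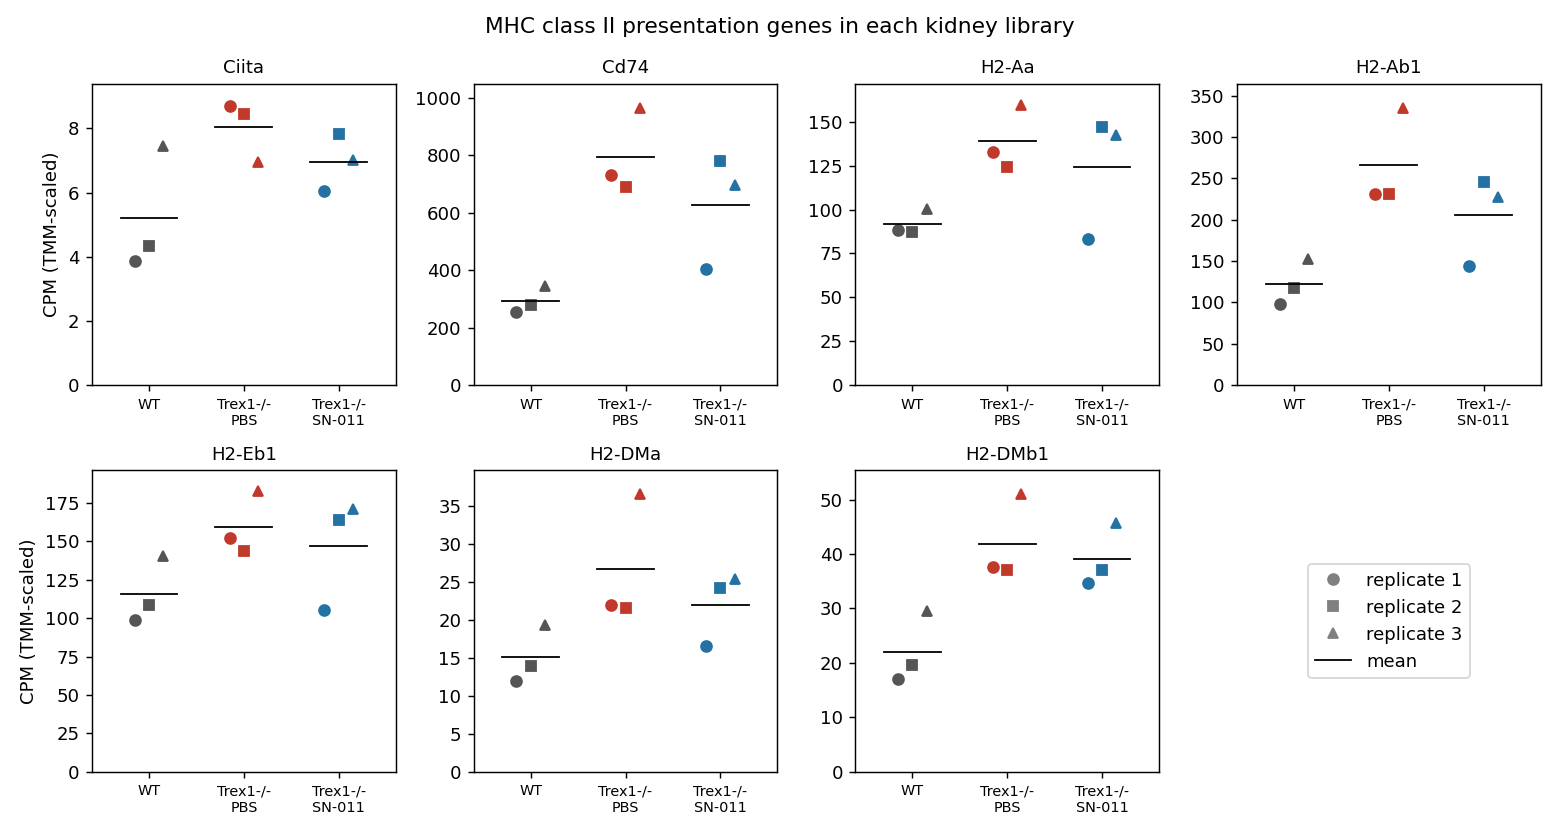
CPM (TMM-scaled, vertical axis from 0) of the 7 class II genes in each library, by group, with the marker shape giving the replicate number and the bar the group mean. PBS libraries lie above all WT libraries for every gene but Ciita, and SN-011 replicate 1 is the lowest SN-011 library in each panel.

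The invariant chain gene, Cd74 (ENSMUSG00000024610, chromosome 18, 60803848 to 60812652 of GRCm38, plus strand), was the most abundant. It stood at 253, 280 and 345 CPM in WT replicates 1, 2 and 3, at 730, 690 and 963 CPM in PBS, and at 402, 780 and 697 CPM in SN-011. The PBS and SN-011 libraries were all above the WT libraries, while SN-011 and PBS overlapped. Its mean was 293 ± 47.2 CPM in WT, 795 ± 147 in PBS and 626 ± 199 in SN-011 (SD, n = 3 each). Between PBS and WT the log2 fold change was 1.44 (SE 0.237), and the adjusted p by edgeR's quasi-likelihood test was 0.0113.

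Of the class II chains, H2-Ab1 encodes the β chain of I-A. It stood at 98.2, 117 and 152 CPM in WT, at 231, 231 and 336 CPM in PBS, and at 144, 246 and 228 CPM in SN-011. PBS did not overlap WT, and SN-011 replicate 1 fell within the WT range. The change from WT to PBS was 1.12 on the log2 scale (SE 0.233, adjusted p by edgeR 0.0403). Its partner H2-Aa, the α chain gene, stood at 88.2, 87.4 and 100.1 CPM in WT, at 133, 124 and 160 CPM in PBS, and at 83.3, 147 and 142 CPM in SN-011. All PBS libraries were above all WT libraries, and SN-011 replicate 1 was below every WT library. The log2 difference of 0.60 (SE 0.192, 95% interval 0.17 to 1.02) between PBS and WT did not pass the test (edgeR, adjusted p = 0.171).

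H2-Eb1, the β chain without a partner in this strain, stood at 98.9, 108 and 140 CPM in WT, at 152, 143 and 183 CPM in PBS, and at 105, 164 and 171 CPM in SN-011. WT replicate 3 came close to PBS replicate 2 without overlap. Its log2 difference between PBS and WT was 0.46 (SE 0.192, 95% interval 0.04 to 0.89, adjusted p by edgeR 0.291), the smallest of the 7 genes. H2-Ea-ps, the Eα gene in the annotation, was listed at 0 counts in all 9 libraries. For a count of 0 the limit was set at 3 counts, or 0.135 to 0.186 CPM, per library, which covers counting error only and is no strict maximum.

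The peptide exchange factor is a dimer of H2-DMa and an H2-DMb chain. H2-DMa stood at 12.02, 13.9 and 19.3 CPM in WT, at 22.0, 21.5 and 36.6 CPM in PBS, and at 16.5, 24.2 and 25.4 CPM in SN-011. PBS replicate 3 was well above the other PBS libraries. The log2 difference between PBS and WT was 0.83 (SE 0.251, adjusted p by edgeR 0.151). H2-DMb1 stood at 17.02, 19.6 and 29.6 CPM in WT, at 37.7, 37.0 and 51.0 CPM in PBS, and at 34.7, 37.0 and 45.7 CPM in SN-011. It was, with Cd74, one of the genes whose PBS and SN-011 libraries all lay above WT. Its log2 difference of 0.93 between PBS and WT (SE 0.208) had an adjusted p of 0.0565 by edgeR.

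Ciita, the coactivator, was the least abundant, with 82 to 145 counts per library. It stood at 3.87, 4.34 and 7.46 CPM in WT, at 8.71, 8.47 and 6.96 CPM in PBS, and at 6.06, 7.82 and 7.004 CPM in SN-011. Among the 7 genes it alone had overlapping WT and PBS libraries, since WT replicate 3 exceeded PBS replicate 3. The log2 difference between PBS and WT was 0.63 (SE 0.243, 95% interval 0.09 to 1.17, adjusted p by edgeR 0.253).

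Taken over the list, 2 of 7 genes were called higher in PBS than in WT, against 1.44% of all 16646 genes, and 6 of 7 were higher without overlap, against 13.1% of all genes. The median log2 difference of the 7 genes was 0.83, where that of all genes was 0.003. The Y-linked reads moved with this comparison, and their part in it was not tested beyond the values that follow. WT replicate 3 was the highest WT library for all 7 genes. It stood at 345 CPM for Cd74 against 690 to 963 CPM in PBS, at 152 against 231 to 336 CPM for H2-Ab1, and at 7.46 against 6.96 to 8.71 CPM for Ciita. With a term for Y-linked reads in the fit, Cd74 kept its call (log2 fold change 1.16, adjusted p by edgeR 0.0465), and H2-Ab1 did not (0.84, adjusted p = 0.146). Single libraries also decided calls. For Cd74 the adjusted p was 0.0702 without WT replicate 1, 0.0688 without WT replicate 2 and 0.0541 without PBS replicate 3, with log2 fold changes of 1.34, 1.41 and 1.28. For H2-Ab1 it was between 0.0525 and 0.171 in the 7 alternatives that lost the call (the Y-linked term and leaving out WT replicate 1 or 2, PBS replicate 1, 2 or 3, or SN-011 replicate 3). Other genes gained a call, H2-DMb1 in 7 of 18 alternatives, H2-Aa and H2-DMa in 3 each, Ciita in 1 (without WT replicate 3, 0.97, adjusted p by edgeR 0.0315) and H2-Eb1 in 0. For H2-DMb1 the adjusted p was 0.000938 by DESeq2, 0.0387 by limma-voom and, by edgeR, 0.00757 without WT replicate 3 and 0.0347 without SN-011 replicate 2. For H2-DMa it was 0.0314 by DESeq2, and for H2-Aa it was 0.0246 by edgeR without SN-011 replicate 1.

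**Figure D2:**
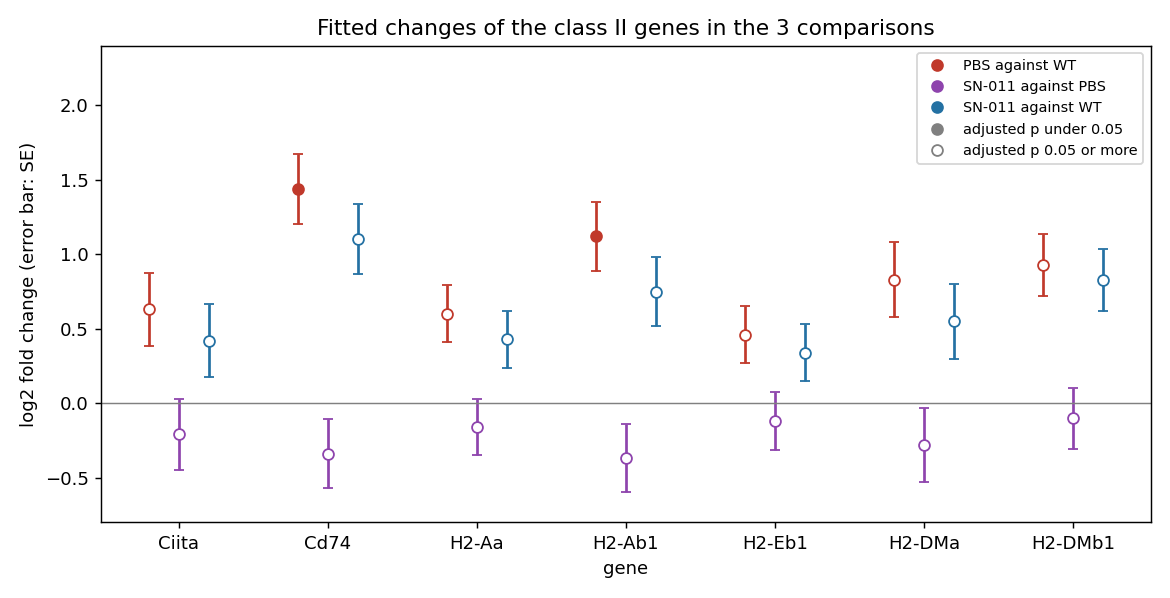
Log2 fold change (vertical axis, error bars are SE) of each class II gene in the 3 comparisons, with filled points for an adjusted p under 0.05 by edgeR. Only Cd74 and H2-Ab1 in PBS against WT are filled, all 7 values of SN-011 against PBS lie below 0, and all 7 of SN-011 against WT lie above 0.

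Between SN-011 and PBS, 0 of the 7 class II genes were called by edgeR, DESeq2 or limma-voom, and 0 of 7 had an unadjusted p under 0.05. Of all 16646 genes, edgeR called 0 lower (0%) and 0 higher, although 1905 had an unadjusted p under 0.05, and DESeq2 called 183 and limma-voom 0. All 7 genes had a log2 difference below 0, from -0.10 for H2-DMb1 to -0.37 for H2-Ab1, with a median of -0.21. All 7 overlapped between the groups, where 8.41% of all genes were lower without overlap. For Cd74 the log2 difference was -0.34 (SE 0.232, 95% interval -0.86 to 0.17, adjusted p by edgeR 0.607). For H2-Ab1 the 95% interval ran from -0.88 to 0.14 (adjusted p by edgeR 0.575), and for H2-DMb1 it ran from -0.55 to 0.36 (0.888). H2-DMa had -0.28, Ciita -0.21, H2-Aa -0.16 and H2-Eb1 -0.12, with intervals that also included 0. The lower ends of all 7 intervals, from -0.54 to -0.88, leave room for a fall of that size as well as for none. The signs depended on single libraries. Without SN-011 replicate 1, a library without Y-linked reads, H2-Aa and H2-Eb1 had log2 differences of 0.06 and 0.07 in place of -0.16 and -0.12. With the term for Y-linked reads the signs of Ciita (0.16), H2-Aa (0.02), H2-Eb1 (0.10) and H2-DMb1 (0.10) also turned, and without PBS replicate 3 those of H2-DMa (0.02) and H2-DMb1 (0.07) did. Cd74 and H2-Ab1 kept their sign in all 18 alternatives, but their size moved from -0.54 to -0.07 and from -0.52 to -0.08.

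Between SN-011 and WT, 0 of 7 genes were called higher by edgeR against 0.823% of all genes, 2 of 7 (Cd74 and H2-DMb1) were higher without overlap against 11.8%, and all 7 had a log2 difference above 0. At an unadjusted p under 0.05 there were 4 of the 7 and 2998 of all 16646 genes. DESeq2 called 3 of the 7 and 816 of all genes, and limma-voom 0 of the 7 and 179 of all genes. The log2 difference was 1.10 for Cd74 (SE 0.235, 95% interval 0.58 to 1.62, adjusted p by edgeR 0.0557) and 0.83 for H2-DMb1 (SE 0.208, adjusted p by edgeR 0.0867). It was 0.75 for H2-Ab1, 0.55 for H2-DMa, 0.43 for H2-Aa, 0.42 for Ciita and 0.34 for H2-Eb1, with adjusted p by edgeR from 0.141 to 0.395. Of 18 alternatives, 5 called Cd74, 5 H2-DMb1, 3 H2-Ab1 and 1 H2-Aa (without SN-011 replicate 1), with lowest adjusted p-values by edgeR or DESeq2 of 0.000111, 0.00523, 0.0227 and 0.0389. With the Y-linked term Cd74, H2-DMb1 and H2-Ab1 were called (adjusted p by edgeR 0.0133, 0.0344 and 0.0491). Among the libraries without Y-linked reads, the 2 WT libraries averaged 266 CPM of Cd74 and the 2 SN-011 libraries 550 CPM. For H2-DMb1 these means were 18.3 and 40.2 CPM, and for H2-Eb1 they were 104 and 138 CPM. The comparisons share their PBS, WT or SN-011 libraries and are not independent of each other.

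Per length of exon, the order of the class II genes changed at a single place. In WT the mean level was 174 CPM per kb for Cd74, 59.6 for H2-Eb1, 47.7 for H2-Ab1, 24.2 for H2-Aa, 13.1 for H2-DMb1, 4.38 for H2-DMa and 0.548 for Ciita. In PBS it was 473 CPM per kb for Cd74, 104 for H2-Ab1, 82.0 for H2-Eb1, 36.6 for H2-Aa, 24.9 for H2-DMb1, 7.75 for H2-DMa and 0.844 for Ciita. In SN-011 the levels were 373, 80.2, 75.5, 32.7, 23.3, 6.39 and 0.730 CPM per kb in that same order. H2-Eb1 was above H2-Ab1 in each WT library and H2-Ab1 above H2-Eb1 in each Trex1-/- library, with or without SN-011. Across libraries the levels of these neighbours overlapped in every group, and those of H2-Aa and H2-DMb1 overlapped in SN-011. The remaining neighbours did not overlap in any group. Lengths are those of all annotated exons of a gene, so levels between genes depend on the annotation.

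Within a library, ratios remove the scaling between libraries. The log2 ratio of H2-Ab1 to H2-Aa CPM was 0.15, 0.42 and 0.61 in WT, 0.80, 0.90 and 1.07 in PBS, and 0.79, 0.75 and 0.68 in SN-011. That of Cd74 to H2-Aa was 1.52, 1.68 and 1.78 in WT, 2.46, 2.47 and 2.59 in PBS, and 2.27, 2.41 and 2.29 in SN-011. In both ratios all 6 Trex1-/- libraries, SN-011 replicate 1 included, were above all WT libraries. The ratios were chosen after their values were seen and were not tested. Cd74 CPM relative to Ptprc, the pan-leukocyte surface phosphatase CD45, had a log2 ratio of 4.70 to 4.85 in WT, 5.06 to 5.56 in PBS and 5.19 to 5.26 in SN-011. H2-Aa relative to Ptprc had 3.06 to 3.18 in WT, 2.58 to 2.97 in PBS and 2.79 to 2.97 in SN-011. So relative to Ptprc in the same library, Cd74 was higher and H2-Aa lower in every Trex1-/- library than in every WT library. Ciita relative to Ptprc overlapped between the groups, with -1.34 to -0.68 in WT, -1.55 to -1.12 in PBS and -1.44 to -0.87 in SN-011.

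**Figure D3:**
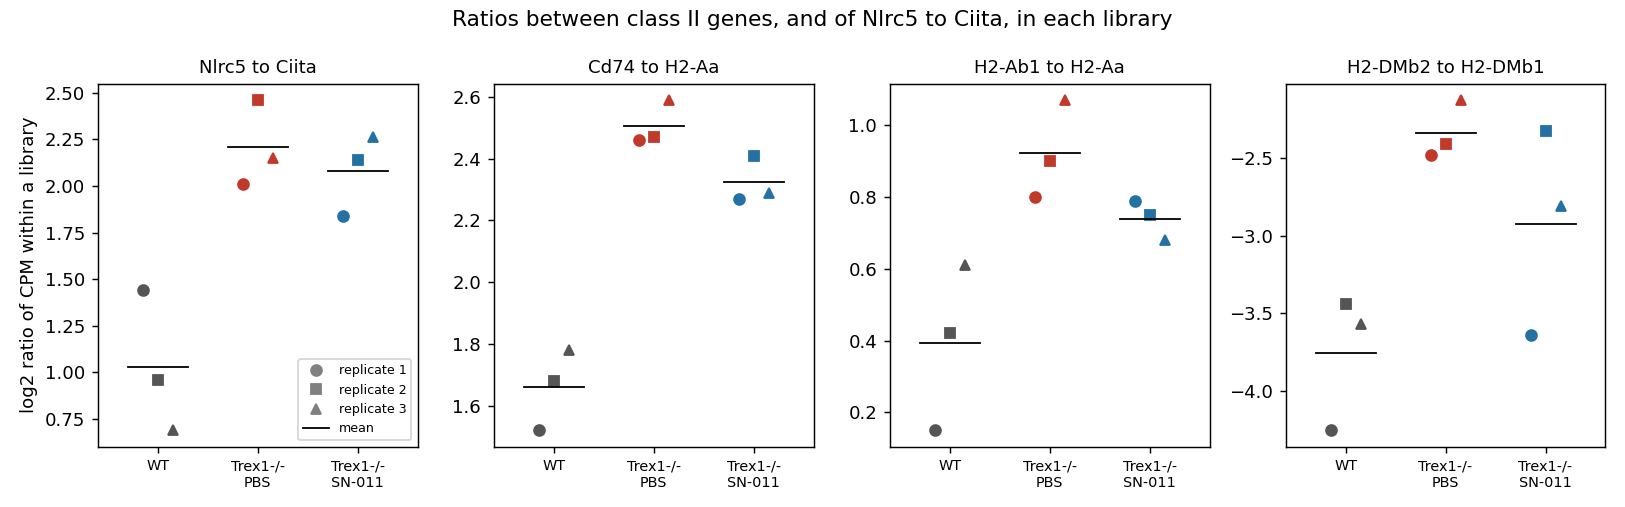
Log2 ratio of CPM between pairs of genes within each library (vertical axes, not starting at 0), by group, with the bar at the group mean. Cd74 to H2-Aa, H2-Ab1 to H2-Aa and Nlrc5 to Ciita are above all WT libraries in all 6 Trex1-/- libraries, while H2-DMb2 to H2-DMb1 overlaps WT through SN-011 replicate 1.

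Across the 9 libraries the members varied together. Pearson's r of log2 CPM between pairs of the 7 genes ran from 0.688 (Ciita and H2-Aa) to 0.985 (Cd74 and H2-Ab1), a description over libraries that share their groups and library composition. Among 14835 genes with a mean of at least 1 CPM, the 6 whose profile was most like the mean standardized profile of the class II genes were Coq2, Bloc1s6, H2-DMb2, Arpc5, Ctss and Nek2, with r from 0.968 to 0.985 over 9 libraries. H2-DMb2 and Ctss are themselves class II pathway genes. Nek2, a mitotic kinase, ran from 1.74 to 7.89 CPM. Coq2, of ubiquinone synthesis, spanned 98.2 to 122 CPM and Arpc5, an actin-nucleating Arp2/3 subunit, spanned 112 to 155 CPM, so their profiles were alike in shape with a much smaller range.

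The wider class II pathway was described by 5 lists with 38 genes, of which 33 were tested. In PBS against WT, 5 of 33 were called higher and 0 lower by edgeR, with a median log2 difference of 0.10, and 1.44% of all genes were called higher. In SN-011 against PBS, 0 of 33 were called by edgeR and by limma-voom and 2 (both lower, Cd274 among them) by DESeq2, and the median was -0.09. At an unadjusted p under 0.05 there were 7 of the 33 and 1905 of all 16646 genes. In SN-011 against WT 1 of 33 was called higher by edgeR, against 0.823% of all genes, and the median of the 33 was 0.05. With the Y-linked term, 2 of the 33 (Cd274 among them) were called in PBS against WT.

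Of 5 other class II chain genes, 2 were tested. H2-DMb2, a paralog of H2-DMb1, stood at 0.896, 1.81 and 2.49 CPM in WT, at 6.76, 6.95 and 11.6 CPM in PBS, and at 2.78, 7.36 and 6.53 CPM in SN-011. It rose from WT to PBS by 2.30 on the log2 scale (SE 0.433, adjusted p by edgeR 0.0246), a larger value than any of the 7 genes had. It was not called with the Y-linked term (1.83, adjusted p by edgeR 0.0934) and without WT replicate 1 or 2 or any of the 3 PBS libraries, where the highest adjusted p was 0.113. H2-Ob, the β chain of H2-O, an inhibitor of H2-DM found mostly in B cells, stood at 1.89, 1.45 and 1.91 CPM in WT, 0.974, 1.34 and 0.932 CPM in PBS, and 0.680, 0.580 and 0.772 CPM in SN-011. The groups did not overlap, and against WT the differences were opposite in sign to those of the 7 genes, but the log2 differences of -0.68 (PBS against WT), -0.68 (SN-011 against PBS) and -1.36 (SN-011 against WT) did not pass the test (adjusted p by edgeR 0.279, 0.436 and 0.0557). H2-Oa, with 3 to 17 counts a library, and H2-Eb2, with 0 to 6, were too low to be tested. H2-Eb2 thus shared its X and Y letters with H2-Eb1 while the latter had 1859 to 2938 counts.

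Endosomal processing, with 10 genes tested, had 1 call. Ctss, which encodes cathepsin S, the main protease of the invariant chain in antigen-presenting cells, stood at 13.5, 13.5 and 23.4 CPM in WT, at 33.6, 34.0 and 40.0 CPM in PBS, and at 19.5, 29.8 and 29.9 CPM in SN-011. It rose from WT to PBS by 1.10 on the log2 scale (SE 0.229, adjusted p by edgeR 0.0403), and all SN-011 libraries were below all PBS libraries without passing the test (-0.44, adjusted p by edgeR 0.495). With the Y-linked term its log2 difference from WT was 0.78 and was not called (adjusted p by edgeR 0.109). It also lost the call without WT replicate 1 or 2, without any of the PBS libraries or without SN-011 replicate 3. The lowest value of the list was that of Ctsd, cathepsin D, at -0.20 (adjusted p by edgeR 0.382). Ifi30, the lysosomal thiol reductase GILT, had 0.17 (adjusted p by edgeR 0.712).

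The 7 genes of the class II enhanceosome, the RFX and NF-Y subunits and Creb1 that CIITA docks on, had 0 calls by edgeR in any comparison, with 1 to 2 genes at an unadjusted p under 0.05 and 1 call by DESeq2 (in SN-011 against WT). Their median log2 difference between PBS and WT was -0.01. The highest was Nfya at 0.31 (adjusted p by edgeR 0.296) and the lowest Rfxank at -0.13 (0.676). Creb1 stood at 41.3, 43.6 and 35.7 CPM in WT, 39.3, 40.5 and 38.2 CPM in PBS, and 55.9, 56.0 and 46.5 CPM in SN-011. SN-011 libraries were thus all above the others for Creb1, with an adjusted p by edgeR of 0.241 against PBS and 0.0923 against WT.

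On the interferon gamma axis, 2 of 8 genes tested were called. Irf1, an interferon-induced transcription factor that acts on the Ciita promoter, stood at 18.3, 17.5 and 24.2 CPM in WT, 37.3, 37.2 and 34.6 CPM in PBS, and 26.8, 27.7 and 33.8 CPM in SN-011. It rose from WT to PBS by 0.87 (SE 0.138, adjusted p by edgeR 0.00945). It was not called with the Y-linked term (0.77, adjusted p by edgeR 0.0501) and without WT replicate 1 or 2 or PBS replicate 1 or 2, up to 0.0626, while its log2 fold change stayed between 0.77 and 1.02 in all 18 alternatives. Jak2 was the lowest of the list at -0.05 (adjusted p by edgeR 0.889). Ifng, the cytokine gene itself, was near the limit of detection with 0 to 2 counts per library and was not tested.

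Among costimulation and checkpoint genes, 1 of 6 tested was called. Cd274, which encodes the checkpoint ligand PD-L1, stood at 8.68, 8.13 and 7.46 CPM in WT, at 20.2, 26.0 and 16.7 CPM in PBS, and at 10.5, 12.9 and 14.2 CPM in SN-011. The 3 groups did not overlap. Its log2 fold change between PBS and WT was 1.37 (SE 0.176, adjusted p by edgeR 0.00238), a call kept in 18 of 18 alternatives, and between SN-011 and PBS it was -0.74 (95% interval -1.13 to -0.36, adjusted p by edgeR 0.227). Cd86, a ligand of CD28, had 0.64 between PBS and WT (adjusted p by edgeR 0.258), and Icosl, the ligand of ICOS, had the lowest value at -0.35 (0.287).

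**Figure D4:**
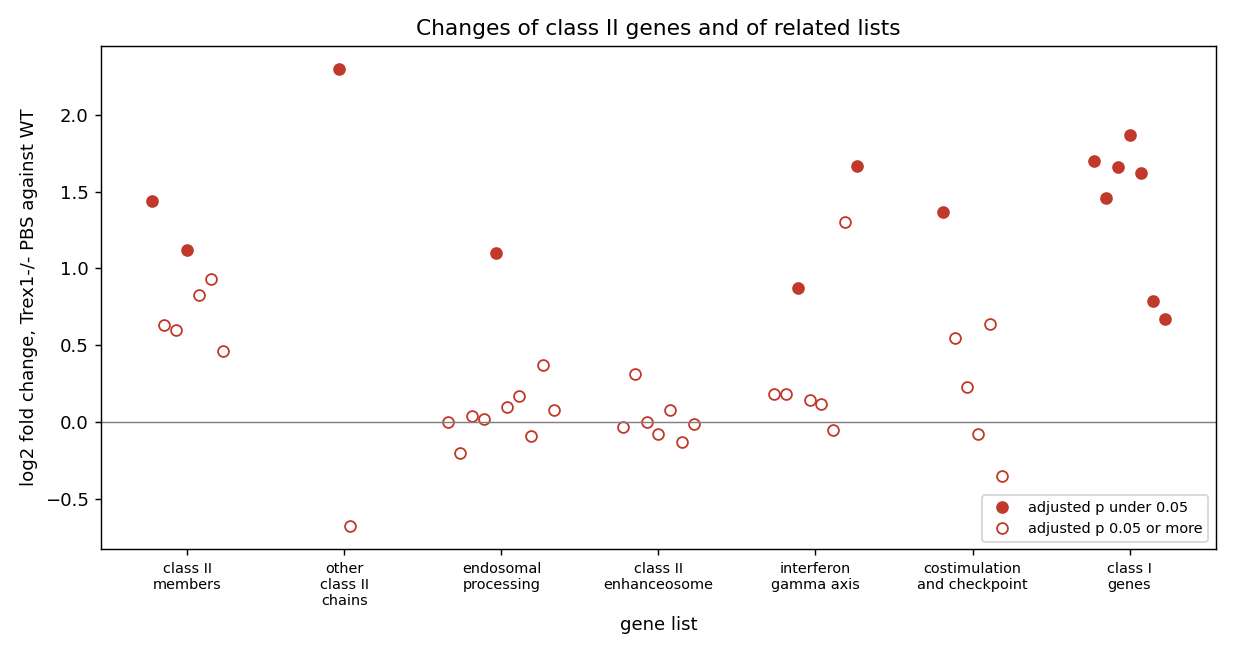
Log2 fold change between Trex1-/- PBS and WT (vertical axis) of every tested gene of the class II list, the 5 pathway lists and the class I list, 1 point per gene, filled for an adjusted p under 0.05 by edgeR. The 7 class II genes lie at 0.46 to 1.44, the 7 class I genes, all filled, at 0.67 to 1.87, and most processing and enhanceosome genes near 0.

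Class I genes gave the nearest comparison, since NLRC5 does for class I what CIITA does for class II. All 7, with a median log2 fold change of 1.62, were called higher in PBS than in WT, against 1.44% of all genes. The class I heavy chains H2-K1 and H2-D1 rose by 1.66 and 1.46 on the log2 scale and B2m, their light chain, by 1.70 (adjusted p by edgeR 0.000212, 0.000871 and 0.00141). The peptide transporter genes Tap1 and Tap2 rose by 1.62 and 0.79, and Tapbp, which encodes the loading factor tapasin, by 0.67 (adjusted p by edgeR 0.00155, 0.0145 and 0.0125). In SN-011 against WT, where 0.823% of all genes were called higher, 5 of 7 (Nlrc5, H2-K1, H2-D1, B2m and Tap1) were, and the median of the 7 was 0.93. Their log2 fold changes were 1.53, 1.08, 0.88, 1.11 and 0.93 (adjusted p by edgeR 0.011, 0.0066, 0.0284, 0.0284 and 0.0494). H2-K1 kept this call in 18 of 18 alternatives. Leaving out WT replicate 1 or 2 ended the call of the other 4 genes, with adjusted p by edgeR of up to 0.0572 for Nlrc5. Leaving out any PBS library or SN-011 replicate 3, or fitting the 6 libraries alone, also ended those of H2-D1, B2m and Tap1, where the highest adjusted p was 0.118, 0.123 and 0.18, and that of Tap1 was further lost without SN-011 replicate 2 and with upper-quartile scaling. In SN-011 against PBS 0 of 7 were called by edgeR and 3 by DESeq2, and the median was -0.57. At an unadjusted p under 0.05 there were 6 of the 7 and 1905 of all 16646 genes. Without overlap, 5 of 7 class I genes were lower, against 0 of the 7 class II genes and 8.41% of all genes. With the Y-linked term 5 of 7 were called in PBS against WT, Tap2 and Tapbp losing the call at log2 fold changes of 0.79 and 0.61 (adjusted p by edgeR 0.0535 and 0.0566). Tap2 also lost it without WT replicate 1 or 2 or any PBS library (adjusted p by edgeR up to 0.0751), and Tapbp without WT replicate 1 or 2 or PBS replicate 2 or 3 (up to 0.0792). Nlrc5 stood at 10.5, 8.45 and 12.03 CPM in WT, 35.1, 46.7 and 30.9 CPM in PBS, and 21.6, 34.4 and 33.5 CPM in SN-011. Its log2 fold change between PBS and WT was 1.87 (SE 0.217, adjusted p by edgeR 0.00133). The log2 ratio of Nlrc5 to Ciita CPM was 1.44, 0.96 and 0.69 in WT, 2.01, 2.46 and 2.15 in PBS, and 1.84, 2.14 and 2.26 in SN-011. The ratio was thus above all WT libraries in all 6 Trex1-/- libraries. The difference between the class I and class II lists was not tested.

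Markers of leukocytes, among them cells that carry class II and T cells, were counted beside these values. In PBS against WT, 2 of 6 leukocyte markers (Coro1a and Cd52), 4 of 10 macrophage markers (C1qa, C1qb, C1qc and Fcgr1), 2 of 8 T cell markers (Cd3g and Cd4) and 0 of 7 tested dendritic cell markers were called higher by edgeR. Among all genes 1.44% were called higher. Of these dendritic cell markers 2 had an unadjusted p under 0.05, in opposite directions. Cd209a had a log2 difference of -3.12 (adjusted p by edgeR 0.0808) and Ccr7 of 1.43 (0.227). Of the dendritic cell markers, DESeq2 called 0 higher and 1 lower. The medians of these lists were 0.83, 0.77, 1.61 and 0.13 on the log2 scale. Summed leukocyte markers ran from 75.8 to 99.0 CPM in WT, from 135 to 158 in PBS and from 89.0 to 134 in SN-011. Summed macrophage markers ran from 164 to 188 CPM in WT, from 256 to 285 in PBS and from 163 to 232 in SN-011, and T cell markers from 6.13 to 9.98 CPM, from 17.5 to 27.9 and from 9.07 to 20.4. PBS did not overlap WT in any of these 3 sums, and SN-011 replicate 1 was the lowest SN-011 library in each, as it was for the 7 class II genes. SN-011 lay below PBS without overlap in the leukocyte and macrophage sums and overlapped PBS in the T cell sum. In SN-011 against PBS, 6 of 10 macrophage, 2 of 6 leukocyte and 2 of 8 T cell markers were lower without overlap, against 8.41% of all genes. By edgeR, 0 markers of these 3 lists were called there. The part of these markers in the class II values was not tested.

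**Figure D5:**
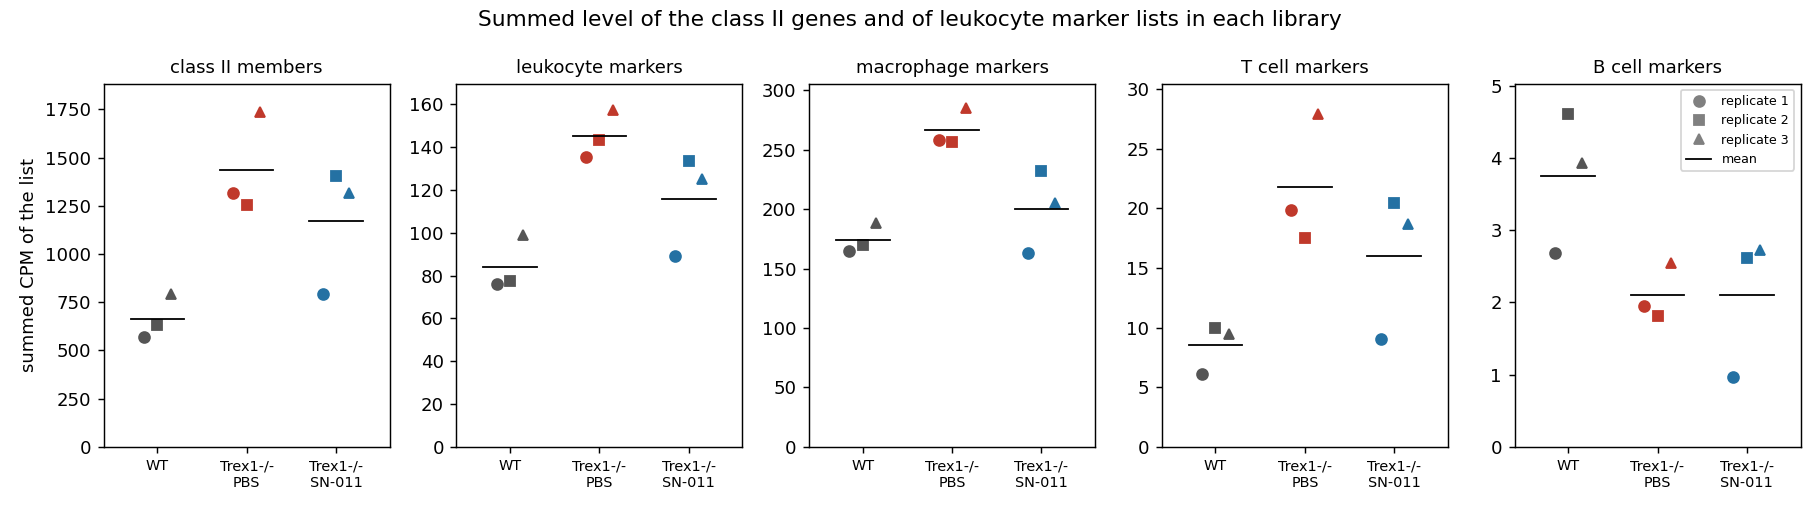
Summed CPM (vertical axes from 0) of the 7 class II genes and of 4 leukocyte marker lists in each library, by group, with the bar at the group mean. SN-011 replicate 1 is the lowest SN-011 library in all 5 panels, and B cell markers stay under 5 CPM in every library.

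B cells, which express class II constitutively, left few reads. The 7 B cell markers summed to 2.69 to 4.61 CPM in WT, 1.81 to 2.55 in PBS and 0.963 to 2.73 in SN-011, so PBS was below every WT library. Ms4a1 (CD20) had at most 0.768 CPM and Pax5, the B cell identity factor, at most 0.289 CPM, with 0 in 2 of 3 PBS libraries. Only 2 of the 7 B cell markers, Cd79a and Cd79b, had enough counts to be tested. Between PBS and WT their log2 differences were 0.11 and -0.81 (adjusted p by edgeR 0.921 and 0.465), with 0 at an unadjusted p under 0.05. Dendritic cell markers summed to 18.9 to 21.3 CPM in WT, 20.4 to 24.0 in PBS and 22.7 to 26.3 in SN-011. Much of this sum was 1 gene, Zbtb46, with 10.2 to 12.6 CPM in WT, 10.7 to 13.5 in PBS and 13.3 to 17.1 in SN-011. Endothelial markers, at 386 to 508 CPM over all libraries, and the tubule markers had 0 calls by edgeR and by DESeq2 in each of the 3 comparisons, with 2 tubule markers at an unadjusted p under 0.05 in PBS against WT.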

How the data were processed

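PolyA+ RNA of 9 mouse kidneys was sequenced in pairs of reads. The authors trimmed reads with Trimmomatic, aligned them with hisat2 to mm10 (per the submitters' processing notes) and counted uniquely mapped pairs per gene with featureCounts. The versions, annotation and strand setting were not given in the sources used here. The deposited values are raw counts, 1 file per library, and were used as deposited. Of 54532 gene identifiers, 54495 matched GENCODE vM21 of GRCm38, the same build, which gave symbols, positions and exon lengths. Sequences are from RefSeq (GRCm38.p6).

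The test was edgeR 4.0.16 under R 4.3.3. After filterByExpr (minimum count 10, minimum total 15) and TMM scaling, counts were fitted in 1 quasi-likelihood model over all 9 libraries with a mean per group. P-values were adjusted by Benjamini-Hochberg over 16646 genes, and a gene was called at an adjusted p under 0.05. Standard errors and 95% intervals were derived from the F statistic and its degrees of freedom. CPM and limits from a count of 3 cover counting error only. The labels do not say that replicates are separate animals, so p-values measure the spread between these libraries, all of which differed by more than counting noise.

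The 7 genes and all lists were chosen with earlier results of these data known. Named genes are the 7 members, each pathway and class I gene called in any comparison, the highest and lowest of each list in PBS against WT, and the 6 genes most alike over the 9 libraries. H2-Oa, H2-Eb2, H2-Ea-ps, Ifng, Creb1, Ifi30, Cd86 and the markers named with values were added after their values were seen. Some genes of these lists are counted but not reported by name here. The steps were tested on simulated data. Alternatives were DESeq2 1.42.0 (size factors or Wald test), limma 3.58.1 (voom), upper-quartile scaling, other filters (at least 1 read, or a mean of 50 counts), a fit restricted to the 6 compared libraries, a replicate block, a term for libraries with over 10 CPM of Y-linked reads, and leaving out each library.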

Additional observations from a re-analysis of the deposited data

How the results depend on the processing

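Of 126 values for the 7 genes in PBS against WT (7 genes under 18 alternatives), 102 kept their direction and side of the threshold, 10 lost and 14 gained a call, and 0 turned. In SN-011 against WT these numbers were 112, 0, 14 and 0, and in SN-011 against PBS 118, 0, 0 and 8. The 8 that turned were, with the Y-linked term, Ciita (0.16), H2-Aa (0.02), H2-Eb1 (0.10) and H2-DMb1 (0.10), without SN-011 replicate 1, H2-Aa (0.06) and H2-Eb1 (0.07), and without PBS replicate 3, H2-DMa (0.02) and H2-DMb1 (0.07). Leaving out 1 library at a time moved the log2 difference between SN-011 and PBS from -0.30 to 0.06 for H2-Aa, from -0.24 to 0.07 for H2-Eb1, from -0.40 to 0.02 for H2-DMa and from -0.22 to 0.07 for H2-DMb1. It also moved it from -0.54 to -0.11 for Cd74, from -0.52 to -0.16 for H2-Ab1 and from -0.31 to -0.12 for Ciita.

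The count of class II genes called in PBS against WT was 2. It was 5 with no filter beyond 1 read, 4 with the DESeq2 Wald test, 4 in the 6 libraries of the comparison, 4 with the replicate block, 1 with the Y-linked term, and 0 to 4 when each library was left out. In SN-011 against WT the count of 0 became 3, 3, 2 and 3 with no filter, DESeq2, the replicate block and the Y-linked term, and 0 to 2 when a library was left out. In SN-011 against PBS it stayed at 0 in all 18 alternatives. The 5 pathway genes called in PBS against WT became 2 with the Y-linked term and 2 to 6 when a library was left out. The 1 in SN-011 against WT became 4 with no filter, 6 with DESeq2, 0 in the 6 libraries, 2 with the replicate block, 5 with the Y-linked term, and 0 to 3 when a library was left out. The 0 in SN-011 against PBS became 2 with no filter and 2 with DESeq2 (Cd274 among them in both). The cause of these moves was not tested.

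Over all genes, 313 were called in PBS against WT. With no filter 707 were, with DESeq2 726, in the 6 libraries 751, with the Y-linked term 198, and 153 to 774 when a library was left out (774 without SN-011 replicate 2). Over all genes, 0 were called in SN-011 against PBS, 127 with no filter, 183 with DESeq2, and 0 to 519 when a library was left out (519 without SN-011 replicate 2). In SN-011 against WT 213 were called, 607 with no filter, 816 with DESeq2, 43 in the 6 libraries, 656 with the Y-linked term, and 38 to 376 when a library was left out.

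The labels do not say that replicate numbers mark a shared litter, batch or day, so the samples were not treated as paired. Over 9 same-numbered pairs the correlation of deviations from group means ran from -0.294 to 0.242, with 5 over 0.1. In 11 of 18 cases a library correlated best with its own number in another group. For the 7 genes, 20 of 21 deviations from the group mean were above 0 in replicate 3, 7 of 21 in replicate 2 and 1 of 21 in replicate 1. The replicate block gave 312, 0 and 231 calls over all genes. Among the 7 genes it added H2-DMa (adjusted p by edgeR 0.0249) and H2-DMb1 (0.00283) in PBS against WT, and Cd74 (0.0358) and H2-DMb1 (0.0114) in SN-011 against WT. Ciita, with 82 to 145 counts per library, is the member most limited by depth.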
